A study of Arabidopsis thaliana with 39 samples.

Results

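Small RNAs of *upf3-1* seedlings were compared directly with those of *upf1-5* seedlings, without the wild type in the test. The members were the 3 *upf3-1* and the 3 *upf1-5* libraries of Set 1, chosen by their labels, that is 6 of the 39 libraries of the series. All 6 came from whole 14 day-old Arabidopsis seedlings grown on MS medium in long days. Both lines are single T-DNA insertion alleles, *upf1-5* in the gene of UPF1 and *upf3-1* in that of UPF3, and both carry no other mutation named in the sources. The 3 Col-0 (1) libraries of the same set, from wild-type seedlings of the same age and medium, are given beside some genes as a level only. Nothing in the labels says whether replicates came from separate cultures, so the p-values measure the spread between these libraries.

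UPF1 is the RNA helicase at the core of nonsense-mediated decay (NMD), the translation-dependent pathway that removes mRNAs with a premature stop codon. UPF3 is its partner, which links the pathway to the exon junction complex. Complete loss of UPF1 is lethal in Arabidopsis, and the viable *upf1-5* is a weak allele. NMD mutants of this plant are known for an activated salicylic acid defence. When decay of an mRNA fails, plants may turn it into small interfering RNAs, and the comparison addresses whether the loss of either factor gives the same or different small RNAs.

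The reads on genes fell between 7188171 and 7364331 per library in *upf1-5* and between 6958945 and 7568449 in *upf3-1*. Reads that were not aligned made up 14.0 to 14.6% of all counted lines in *upf1-5* and 11.3 to 13.8% in *upf3-1*, and reads outside genes 40.4 to 40.8% and 42.9 to 43.3%. The labelled tissue was checked against markers. RBCS1A, a small subunit of Rubisco, had 617 to 940 reads per library, the 8 root markers together 250 to 356 and the 6 flower markers together 0 to 3. The first value is of a single leaf gene and the others are sums over lists. Of the 8 root markers, 2 had enough reads to be tested and 2 had no reads in the 6 libraries. The mutated genes could not check the labels. UPF1 had 30, 20 and 28 reads in *upf1-5* and 28, 24 and 35 in *upf3-1*, with 27, 17 and 20 in Col-0 (1). UPF3 had 9, 9 and 2 reads in *upf1-5* and 1, 0 and 3 in *upf3-1*, too few for the test.

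One library stood apart. On the first principal component of the 500 most variable genes, which held 36.4% of the variance, *upf1-5* replicates 1 and 3 were at -14.8 and -13.1 and the *upf3-1* libraries at 7.79, 5.9 and 8.98. Replicate 2 of *upf1-5* was at 5.2, beside *upf3-1*, and at 14.9 on the second component, away from every other library. Its log2 levels correlated with the *upf3-1* libraries with r of 0.9593, 0.9586 and 0.9547, and with its own replicates 1 and 3 with r of 0.9528 and 0.9511. These correlations are across genes of the same libraries, and genes are not independent replicates. Replicates 1 and 3 of *upf1-5* correlated with each other at 0.9594. The calls are therefore given with this library and without it.

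With all 6 libraries, 9830 genes had enough reads to be tested. Genes count as called at an adjusted p-value below 0.05 with a log2 fold change larger than 1 in either direction. A call by DESeq2 uses the same 2 thresholds. Of the genes tested, 12 rose in *upf3-1* against *upf1-5* (0.122%) and 23 fell (0.234%). Protein-coding genes were 7 of the 12 and 13 of the 23. Without *upf1-5* replicate 2, 10577 genes were tested, of which 44 rose (0.416%) and 80 fell (0.756%), with 24 and 54 protein-coding genes among them. The second set of calls held all 12 genes that rose and 20 of the 23 that fell. So the calls of 32 genes held, and those of 3 were lost. Genes of similar sequence, whose shared reads cannot be told apart, are counted here one by one. When the reads were scaled by the library sizes of the study's depth table in place of TMM, the median of all genes moved to 0.19 and the split of calls turned to 43 that rose and 10 that fell.

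**Figure D1:**
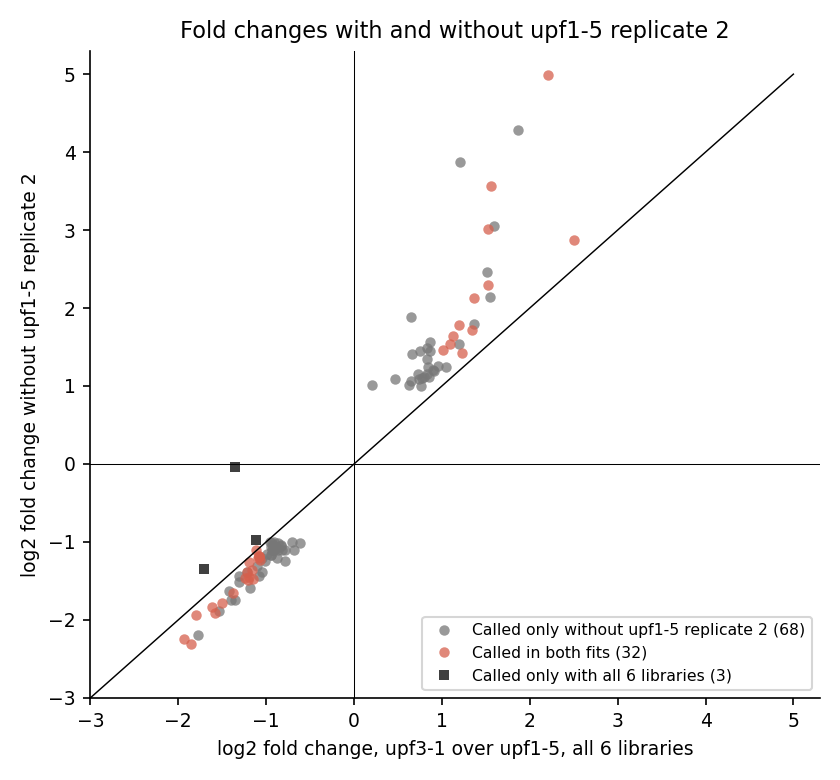
Each point is a gene called in at least 1 of the fits and tested in both (103 genes). The x axis is its log2 fold change, *upf3-1* over *upf1-5*, with all 6 libraries, the y axis the same without *upf1-5* replicate 2, and the line marks equal values. Red points were called in both fits (32), grey ones without that library but not with it (68) and black squares with it but not without it (3). The 12 red points of genes that rose all lie above the line, up to 4.99 against 2.21 (AT3G22955).

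The values did not overlap between the groups in 10 of the 12 genes that rose and 20 of the 23 that fell, and in 18.1% of all genes tested (1776 of 9830). Among the 3 *upf1-5* libraries, replicate 2 had the highest level in 11 of the 12 genes that rose and the lowest in 18 of the 23 that fell. It was thus the library of its group nearest to *upf3-1* for most calls.

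The 3 calls lost without replicate 2 behaved differently from each other. The mitochondrial gene ATMG09980 had 1084, 4732 and 564 reads in *upf1-5* and 842, 815 and 1109 in *upf3-1*. Its groups overlap, and its log2 fold change of -1.36 (SE 0.35) rested on the 4732 reads of replicate 2, since it was -0.04 without them. The heavy metal transport/detoxification family gene AT5G19090 had 21, 36 and 16 reads against 6, 5 and 14, and its adjusted p in edgeR's quasi-likelihood test was 0.0340 with replicate 2 and 0.111 without. AT1G21680, of the DPP6 N-terminal domain family, had 65, 101 and 84 reads against 39, 50 and 42. Its adjusted p stayed low (0.00952 and 0.00934), but the log2 fold change of -1.11 became -0.98.

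The position of each library was then read from genes called without it. A position of 0 is the mean log2 level of the rest of its own group, and 1 that of the other group. Without *upf1-5* replicate 2, 124 genes were called, and that library lay nearer to *upf3-1* in 97 of them and nearer to its own replicates in 27. It lay within the range of the *upf3-1* libraries in 36 genes and within that of its own replicates in 5. Its median position was 0.74 over the 44 genes that rose and 0.64 over the 80 that fell. When any other library was left out, 10 to 35 genes were called, and the median position of that library was between -0.18 and 0.25.

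**Figure D2:**
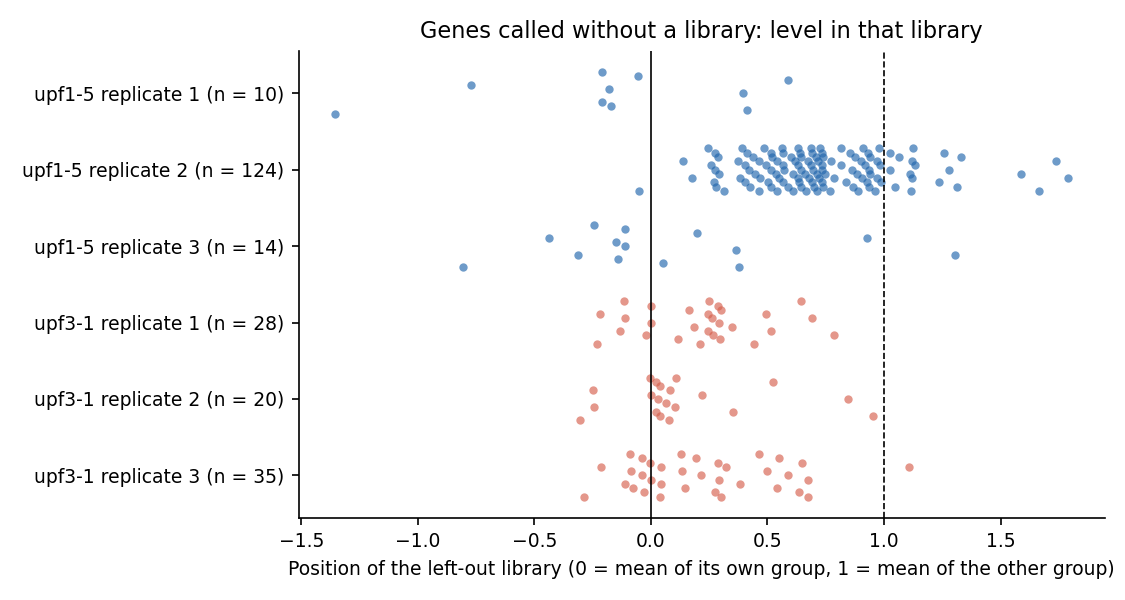
Each point is a gene called without the library named at the left (*upf1-5* in blue, *upf3-1* in red, vertical spread without meaning), and the x axis is the level of that library between the mean of the other libraries of its group (0, solid line) and the mean of the other group (1, dashed line). The 124 points of *upf1-5* replicate 2 centre at 0.69, and those of the other 5 libraries between -0.18 and 0.25.

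Among the genes called in both fits, those with the most reads were small stable RNAs, and their sequences are shown first. Box C/D small nucleolar RNAs (snoRNAs) guide the methylation of ribosomal RNA and carry a C box near the 5′ end and a D box near the 3′ end. The 5 snoRNA genes that fell in both fits are given from RefSeq (TAIR10.1), 5′ to 3′ on their own strand, with TGATGA near the 5′ end and CTGA near the 3′ end in capitals.
AtsnoR23-1: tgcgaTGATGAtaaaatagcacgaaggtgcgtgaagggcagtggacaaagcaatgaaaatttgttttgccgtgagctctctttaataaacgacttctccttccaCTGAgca
AtsnoR23-2: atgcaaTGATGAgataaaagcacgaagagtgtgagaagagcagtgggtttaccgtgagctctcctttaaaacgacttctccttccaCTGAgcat
AtsnoR23-3: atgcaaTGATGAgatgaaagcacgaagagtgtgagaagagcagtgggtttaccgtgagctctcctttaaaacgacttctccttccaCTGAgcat
AT1G03743: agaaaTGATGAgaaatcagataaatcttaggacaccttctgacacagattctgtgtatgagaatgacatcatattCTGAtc
AT4G13245: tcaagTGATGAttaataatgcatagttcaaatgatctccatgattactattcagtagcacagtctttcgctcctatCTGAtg

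These genes lie at chr3:7682639-7682749 (plus strand), chr4:8460056-8460149 (plus), chr4:8712720-8712813 (minus), chr1:937207-937287 (minus) and chr4:7684061-7684142 (plus). On the strand of the gene, TGATGA within the first 20 bases together with CTGA within the last 15 was found in 120 of the 287 snoRNA genes in the counts (41.8%). AtsnoR23-2 and AtsnoR23-3 differ by A16G, with positions counted from the 5′ end, and share 55 words of 24 bases. A read could be counted at several places, and the counts of these 2 genes differed by at most 2 reads in each of the 6 libraries, so they cannot be told apart. AtsnoR23-1 shares 2 such words with each of them.

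AtsnoR23-1 (AT3G04165) had 1343, 1088 and 1259 reads in *upf1-5* and 768, 646 and 560 in *upf3-1*, with 1225, 907 and 792 in Col-0 (1). Every *upf1-5* library was above every *upf3-1* library. The level was 182 ± 23.6 RPM (SD, n = 3) in *upf1-5* and 85.0 ± 11.3 RPM in *upf3-1*, where RPM is the usual rate relative to the library total, with the total scaled by TMM, the normalization of edgeR. In edgeR's quasi-likelihood test the log2 fold change was -1.09 (SE 0.15, adjusted p = 6.69e-05) with all 6 libraries and -1.2 (adjusted p = 3.04e-08) without replicate 2. AtsnoR23-2 (AT4G06250) and AtsnoR23-3 (AT4G06310) fell by the same amount, with log2 fold changes of -1.08 each. All 3 were also called in 5 of the 6 fits that left out 1 library and by DESeq2. The adjacent snoRNA gene AT3G04175 lies 56 bases from AtsnoR23-1 on the same strand. It had 72, 20 and 74 reads against 50, 26 and 43, and was called without replicate 2 but not with it.

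The other 2 snoRNA genes had fewer reads. AT1G03743 had 25, 15 and 38 reads in *upf1-5* and 8, 7 and 8 in *upf3-1*, with a log2 fold change of -1.94 (SE 0.41). AT4G13245 had 24, 25 and 56 reads against 17, 8 and 14, with -1.62 (SE 0.36). In both, the RPM levels of the groups did not overlap. AT1G03746, 114 bases from AT1G03743 on the same strand, had 87, 84 and 140 reads against 48, 73 and 57. With all 6 libraries its log2 fold change was -0.99, under the threshold, and without replicate 2 it was -1.15 and called.

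U12 is the small nuclear RNA of the minor spliceosome that pairs with the branch site of U12-type introns. Its gene lies at chr1:22603121-22603295 (plus strand), and the stretch GTAAGGA, which pairs with the branch site, is in capitals.
U12: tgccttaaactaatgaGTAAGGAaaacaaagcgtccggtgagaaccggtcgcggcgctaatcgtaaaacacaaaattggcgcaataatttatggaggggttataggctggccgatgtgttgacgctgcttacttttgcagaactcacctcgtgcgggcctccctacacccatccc

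U12 had 735, 253 and 527 reads in *upf1-5* and 274, 256 and 251 in *upf3-1*, with 632, 407 and 431 in Col-0 (1). Replicate 2 of *upf1-5* lay at the level of *upf3-1*, and replicates 1 and 3 lay well above it. The log2 fold change was -1.15 (SE 0.21) with all 6 libraries and -1.48 (SE 0.15) without replicate 2. DESeq2 called U12 only without that library. The major spliceosome RNAs U2.6 and U2.7, which share 86 words of 24 bases, were called without replicate 2 but not with it. U2.6 had 491, 287 and 363 reads against 275, 222 and 188.

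A tRNA for glycine, AT2G30180 at chr2:12881591-12881661 (plus strand), fell with and without replicate 2. It is shown with AT5G43535 (chr5:17495541-17495611, minus), a glycine tRNA gene of similar sequence, with the anticodon in capitals.
AT2G30180: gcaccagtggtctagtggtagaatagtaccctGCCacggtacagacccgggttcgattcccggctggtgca
AT5G43535: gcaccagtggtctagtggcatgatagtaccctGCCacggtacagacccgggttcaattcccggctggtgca

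AT2G30180 had 507, 493 and 396 reads in *upf1-5* and 242, 199 and 288 in *upf3-1*, with 228, 491 and 570 in Col-0 (1). Its level was 68.3 ± 6.74 RPM in *upf1-5* and 31.4 ± 5.06 RPM in *upf3-1* (SD, n = 3), a log2 fold change of -1.12 (SE 0.15). Replicate 2 did not stand apart here, and the value without it was -1.11. It was called in each of the 6 fits that left out 1 library, with adjusted p-values up to 0.00441 in edgeR's quasi-likelihood test. It was not called when all 5 groups of Set 1 entered one fit (adjusted p = 0.0686 in edgeR) or with the depth table, where the log2 fold change was -0.93. The same 71 bases are found at 14 places in the genome, each a glycine tRNA gene, and the other 13 genes had 0 to 14 reads in each of these 6 libraries and Col-0 (1). By the study's methods the mapping dropped reads with more than 10 places. A read wholly within the 71 bases has at least 14, so the counts of AT2G30180 are of reads that reach beyond the printed sequence. The wild-type libraries spread as widely as the difference between the mutants. AT5G43535 had 180, 219 and 141 reads against 105, 78 and 136. The difference on the log2 scale was -0.94 (SE 0.18, adjusted p = 0.00672 in edgeR's quasi-likelihood test), under the threshold on the fold.

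In all, 6 of the 172 snoRNA and small nuclear RNA genes tested fell and 0 rose. Without replicate 2 such genes were 13 of the 80 genes that fell (16.2%) and 1.68% of the genes tested. At an adjusted p under 0.05 with no threshold on the fold, 18 of the 172 were lower in *upf3-1* and 0 higher, against 0.844% lower and 0.356% higher of all genes tested. The class took 0.425, 0.411 and 0.452% of the gene reads in *upf1-5* and 0.376, 0.322 and 0.402% in *upf3-1*. Its median log2 fold change was -0.22, against 0.00 over all genes, and -0.02 against 0.19 with the library sizes of the depth table.

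Of the protein-coding genes, 18 calls held. The pectin lyase-like gene AT5G07430 and the F-box gene AT3G20690 were, with the glycine tRNA, the 3 genes called in every one of the 6 fits that left out 1 library. AT5G07430 had 48, 38 and 52 reads in *upf1-5* and 13, 15 and 17 in *upf3-1*, with 174, 178 and 165 in Col-0 (1). Its log2 fold change was -1.80 (SE 0.29), with adjusted p = 0.00103 in edgeR's quasi-likelihood test and at most 0.0136 without any 1 library. AT3G20690 had 222, 82 and 169 reads against 79, 47 and 55, with 703, 518 and 530 in Col-0 (1). On the log2 scale it fell by 1.58 (SE 0.24), and the value without replicate 2 was -1.91 (SE 0.19). For both genes the wild type was the highest group and *upf3-1* the lowest.

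The other 8 protein-coding genes named by the rule fell with lower counts, and none was called in more than 3 of the 6 fits that left out 1 library. They were COL5, a CONSTANS-like zinc finger protein, WES1, an enzyme that joins auxin to amino acids, GDI2, a Rab GDP dissociation inhibitor, LTA2, a subunit of plastid pyruvate dehydrogenase, the RING/U-box gene AT5G67120, the myb-like gene AT1G25550, the mRNA-binding family gene AT4G17520 and AT1G09310 of unknown function. COL5 had 32, 15 and 30 reads in *upf1-5* and 11, 7 and 13 in *upf3-1*, with 62, 62 and 52 in Col-0 (1), and -1.5 (SE 0.38) as its log2 fold change. WES1 had 57, 30 and 61 reads against 27, 17 and 21, with -1.38 (SE 0.29). In both genes replicate 2 was the lowest *upf1-5* library. The one other protein-coding gene that fell in both fits, AT3G25130 of the acidic leucine-rich nuclear phosphoprotein family, had 82, 42 and 71 reads against 22, 28 and 47, and its groups overlap. LTA2 had 38, 33 and 35 reads against 26, 15 and 12, with -1.19 (SE 0.31), and its *upf1-5* libraries were close together. For the remaining 5 genes named by the rule the log2 fold changes were between -1.24 and -1.07. AT4G17520 overlaps the gene RAB1C on the other strand and AT1G09310 overlaps AT1G09320, so reads of these pairs may not be separable where the counting ignored strand.

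Among the protein-coding genes that rose with all 6 libraries, PR1 had the largest log2 fold change. PR1 encodes a secreted defence protein and is the usual marker of salicylic acid signalling. It had 3, 4 and 1 reads in *upf1-5* and 17, 22 and 14 in *upf3-1*, and 0, 0 and 0 in Col-0 (1). The groups did not overlap. The log2 fold change was 2.5 (SE 0.55) with adjusted p = 0.0185 in edgeR's quasi-likelihood test, and 2.87 (SE 0.68) without replicate 2. With so few reads the call was made in 2 of the 6 fits that left out 1 library, and the adjusted p reached 0.134. Of the 20 genes of the salicylic acid defence list, 2 had enough reads with all 6 libraries. The other was SNC1, an immune receptor, with 163, 168 and 192 reads against 209, 186 and 225 and a log2 fold change of 0.06.

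Immune receptors of the NLR type were not called. Of 91 TIR-type genes, 25 were tested with a median log2 fold change of 0.17, and of 50 CC-type and other NLR genes, 23 were tested with a median of 0.06. With replicate 2 left out, 27 and 23 were tested and again 0 were called by edgeR. With all 6 libraries, 5 of the 48 were higher and 0 lower at an unadjusted p under 0.05, and DESeq2 called 0. Of all genes tested, 5.91% were higher and 7.27% lower at that p.

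AT5G46930, which encodes a protein of the invertase/pectin methylesterase inhibitor family, had 16, 42 and 10 reads in *upf1-5* and 87, 65 and 72 in *upf3-1*, with 10, 13 and 6 in Col-0 (1). Its log2 fold change was 1.53 (SE 0.29), and 2.3 (SE 0.31) without replicate 2, which lay between the groups. This gene lies 14.6 kb from UPF1, the nearest of the genes called in either fit. AT1G06723, a long non-coding RNA gene 6.18 kb from UPF3, fell. It had 80, 36 and 63 reads in *upf1-5* and 24, 27 and 37 in *upf3-1*, with 66, 54 and 62 in Col-0 (1), and a log2 fold change of -1.21 (SE 0.28). Within 1 Mb, 119 genes tested lay around UPF1, of which 1 was called with all 6 libraries, and 185 around UPF3, of which 1 was called. Without replicate 2, 3 genes were called around UPF1 and 1 around UPF3. Of all genes tested, 0.122% rose and 0.234% fell with all 6 libraries, and 0.416% and 0.756% without replicate 2. Whether the insertions bear on these neighbours was not tested.

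The remaining protein-coding genes that rose and did not overlap were AT4G13992, AT5G27260, AT5G22960 and AT4G15260. AT4G13992, of the cysteine/histidine-rich C1 domain family, had 11, 37 and 12 reads in *upf1-5* and 62, 55 and 59 in *upf3-1*, with a log2 fold change of 1.37 (SE 0.30). AT4G15260 encodes a UDP-glycosyltransferase and lies 876 bases from AtsnoR23-3. It had 35, 74 and 32 reads against 127, 104 and 91, while the Col-0 (1) libraries had 9, 7 and 10, and its log2 fold change was 1.01 (SE 0.23). AT5G22960, an alpha/beta-hydrolase gene, had 12, 57 and 40 reads against 89, 93 and 82, with 1.09 (SE 0.28). In all 3 genes replicate 2 was the highest *upf1-5* library.

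AT5G27260 encodes a Myb/SANT-like DNA-binding domain protein, and the pseudogene AT5G35915 resembles it. They share 695 words of 24 bases, and their counts moved together. The longest shared run is 125 bases, in the coding sequence of the first at chr5:9603961-9604085 (plus strand) and at chr5:14044884-14045008 (plus) in the second. It is shown because a read from it maps to each gene.
Shared run: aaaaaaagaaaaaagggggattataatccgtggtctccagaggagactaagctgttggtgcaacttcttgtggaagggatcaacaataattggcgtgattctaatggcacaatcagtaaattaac

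AT5G27260 had 33, 100 and 43 reads in *upf1-5* and 140, 138 and 178 in *upf3-1*, with 36, 55 and 48 in Col-0 (1). AT5G35915 had 34, 92 and 43 against 125, 130 and 164. AT5G27260 rose by 1.2 (SE 0.24) and AT5G35915 by 1.13 (SE 0.23) on the log2 scale, and DESeq2 called both with and without replicate 2. Reads from the stretches they share cannot be told apart, while their counts also differ in most libraries.

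Pseudogenes and transposable elements, the main sources of small RNAs that silence chromatin, made up 35.2% of the genes tested. Of them, 3 rose and 0 fell. The others that rose were AT3G22955 and AT2G13710. Without replicate 2, 15 rose and 3 fell, that is 34.1% of the genes that rose and 3.75% of those that fell. The direction was shared beyond the calls, with a positive log2 fold change in 71.8% of the 3456 genes of this class and in 37.4% of the 5462 protein-coding genes. The medians were 0.13 and -0.13, against 0.00 over all genes. With the depth table, which moved all genes alike, they became 0.33 and 0.06, against 0.19, so that the sign of the protein-coding median flips while its place below the median of all genes stays. The share of reads on this class was 5.77, 6.23 and 5.11% in *upf1-5* and 7.41, 6.17 and 7.23% in *upf3-1*, with 3.28 to 3.55% in Col-0 (1). These ranges overlap (exact two-sided permutation test, p = 0.2, adjusted over 8 classes 0.267).

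AT3G22955 gave the largest rise without replicate 2 among the genes called in both fits. It had 0, 60 and 6 reads in *upf1-5* and 122, 101 and 122 in *upf3-1*, with 27, 53 and 39 in Col-0 (1). Replicates 1 and 3 of *upf1-5* were nearly empty, while replicate 2 had more reads than any Col-0 (1) library. The log2 fold change was 2.21 (SE 0.43) with all 6 libraries and 4.99 (SE 0.41) without replicate 2. AT2G13710 had 24, 24 and 8 reads against 70, 45 and 35, and 1.23 (SE 0.31).

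Several loci showed the same pattern, with few or no reads in *upf1-5* replicates 1 and 3 and a level near *upf3-1* in replicate 2. The long non-coding RNA gene AT4G03765 (chr4:378588-379024, plus strand) had 10, 193 and 27 reads in *upf1-5* and 279, 170 and 319 in *upf3-1*, with 178, 207 and 181 in Col-0 (1). AT3G57480, a zinc finger gene, had 5, 107 and 7 reads against 108, 74 and 129, with 148, 189 and 202 in Col-0 (1). AT3G02610, of the stearoyl-acyl-carrier desaturase family, had 0, 23 and 3 against 38, 23 and 48. The lectin kinase gene AT4G02420 had 6, 37 and 5 against 57, 34 and 67. These 4 genes were called without replicate 2, and AT4G03765 and AT4G02420 also with it, though their groups overlap. AT4G03765 shares 102 words of 24 bases with AT3G02610 and 24 with AT4G02420, so that these counts may include common reads. AT3G57480 shares none with any called gene.

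The mirror pattern was also present. The long non-coding RNA gene AT5G04435 had 63, 7 and 59 reads in *upf1-5* and 0, 3 and 1 in *upf3-1*, with 20, 21 and 21 in Col-0 (1). AT2G06995, another, had 47, 8 and 60 against 1, 2 and 2, with 1, 2 and 2 in Col-0 (1). AT2G05665 had 28, 9 and 20 against 2, 1 and 0, and AT1G12615, of the pentatricopeptide repeat family, 13, 5 and 19 against 0, 0 and 0. In all 4, replicate 2 was the lowest *upf1-5* library and yet above every *upf3-1* library. Each was called in 4 of the 6 fits that left out 1 library, namely without replicate 2 and without each of the *upf3-1* libraries. With all 6 libraries they did not pass the filter on low counts, which then asks for reads in 1 library more. With the *upf3-1* libraries at 3 reads or fewer, no fold is given.

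AT3G07775, a long non-coding RNA gene that overlaps AT3G47540 on the other strand, was called in both fits and had 126, 25 and 105 reads against 31, 20 and 30. Of the other non-coding genes, AT3G08935 rose, with 10, 18 and 8 reads in *upf1-5* and 36, 25 and 43 in *upf3-1* and a log2 fold change of 1.34 (SE 0.34). It lies 9520 bases from AT3G57480 on the same strand.

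The loci with most reads differed by less. AT3G01845 and AT3G06435 are neighbours on the minus strand of chromosome 3, 202 bases apart, and were called without replicate 2 but not with it. AT3G06435 had 14798, 26188 and 17326 reads in *upf1-5* and 32144, 37028 and 42283 in *upf3-1*, with 6391, 5703 and 10108 in Col-0 (1), and a log2 fold change of 0.76 (SE 0.17). AT3G01845 had 4604, 8618 and 5660 against 10990, 12804 and 14659. The order from wild type through *upf1-5* to *upf3-1* is the same in both, and the mutant groups do not overlap. AT2G31141 went the other way, with 8906, 6885 and 7144 reads against 5515, 4473 and 3931. It overlaps genes on the other strand at both ends.

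**Figure D3:**
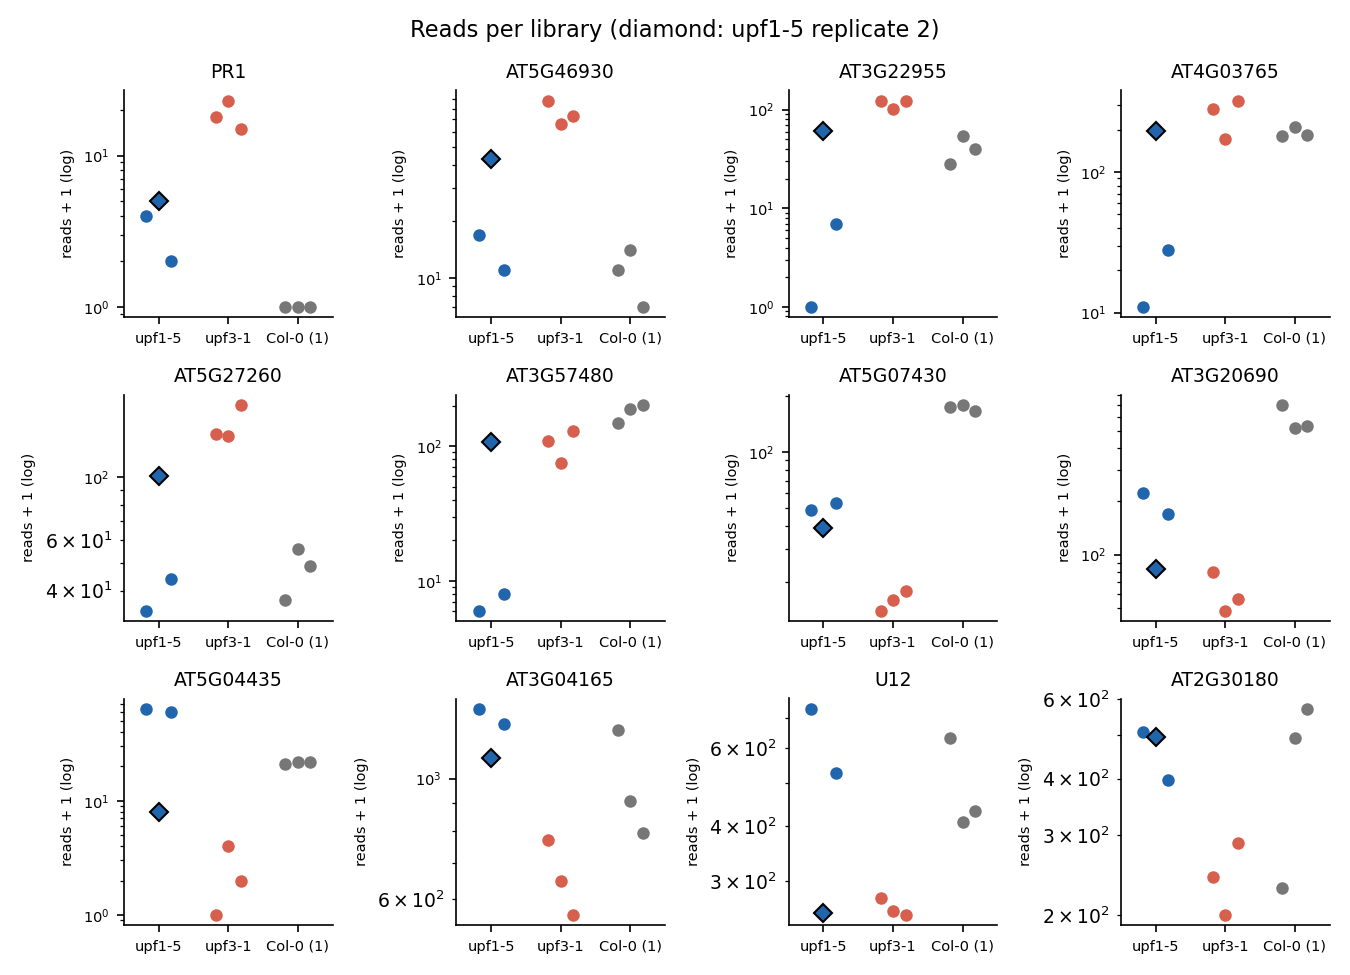
Reads per library, plus 1, on a log axis for 12 genes of the text, in *upf1-5* (blue), *upf3-1* (red) and Col-0 (1) (grey), 3 libraries each, where the diamond is *upf1-5* replicate 2. The diamond lies with *upf3-1* for U12 (253 reads against 251 to 274) and with its own group for AT2G30180 (493 reads beside 507 and 396).

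Among 5 mRNAs that the study names as potential NMD substrates, no difference between the mutants was called. The largest value was that of AT3G27906, of unknown function, with 9, 8 and 11 reads in *upf1-5* and 16, 30 and 24 in *upf3-1*, where the log2 fold change was 1.13 (SE 0.39; adjusted p = 0.166 in edgeR's quasi-likelihood test). AT3G03710, a polyribonucleotide nucleotidyltransferase, had 21, 15 and 22 reads against 44, 23 and 33 and AT1G36730, a translation initiation factor, 41, 56 and 54 against 105, 69 and 61. The former had a log2 fold change of 0.58 (SE 0.31) and the latter one of 0.44 (SE 0.22). AT5G54390 had 16, 8 and 5 against 13, 14 and 16, and AT3G18000, a methyltransferase gene, 46, 39 and 44 against 43, 41 and 34. The first had 0.38 (SE 0.45) and the second -0.31 (SE 0.24). All 5 were tested, 4 with a positive sign, with a median of 0.44 (0.41 without replicate 2). Beside the 0 calls by edgeR and by DESeq2, 1 gene was higher at an unadjusted p under 0.05 in edgeR, where 5.91% of all genes tested were. In each of the 5 genes every library of both mutants had more reads than any Col-0 (1) library. The study picked them from genes with more small RNAs in *upf3-1* or *upf1-5* than in the wild type, in these same libraries. Their excess over Col-0 (1) is thus part of how they were chosen and no separate evidence.

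**Figure D4:**
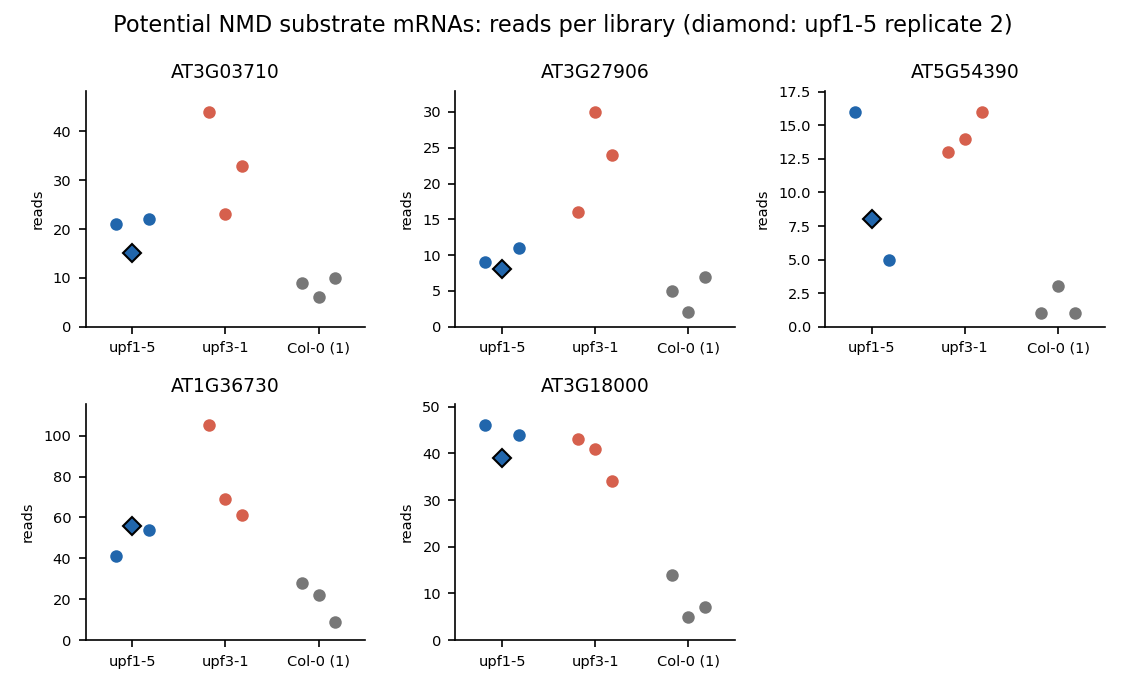
Reads per library (linear axis from 0) for the 5 potential NMD substrate mRNAs in *upf1-5* (blue), *upf3-1* (red) and Col-0 (1) (grey), 3 libraries each, where the diamond is *upf1-5* replicate 2. The reads of the mutants do not overlap for AT3G27906 (8 to 11 against 16 to 30), AT3G03710 (15 to 22 against 23 to 44) and AT1G36730 (41 to 56 against 61 to 105), of which only AT3G27906 stays apart once scaled by TMM.

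The NMD factors themselves and the enzymes of mRNA decay gave no calls. Of 13 NMD factor genes, 9 were tested, with a median of -0.3, and of 27 mRNA decay genes, 14 were tested, with -0.28. UPF1 had a log2 fold change of -0.03 (SE 0.29), UPF2, the bridge between UPF1 and UPF3, 0.60 (SE 0.39) and the exonuclease XRN4 -0.36 (SE 0.43). With the depth table the medians were -0.1 and -0.09, against 0.19 over all genes. Protein-coding genes as a class had a median of -0.13, and of 0.06 with the depth table, so part of these low medians is shared by their class. At an unadjusted p under 0.05 in edgeR, 0 of the 9 NMD factor genes and 3 of the 14 decay genes were lower, and 0 of either were higher. Of all genes tested, 7.27% were lower and 5.91% higher at that p. With the threshold on the fold, DESeq2 called 0.

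RFL-type pentatricopeptide repeat (PPR) genes, which encode organelle RNA-binding proteins, are known to be cut by small RNAs and to yield phased ones. Of 30, 20 were tested, all 20 had a positive log2 fold change and the median was 0.42. A positive sign was found in 50% of all genes tested and in 37.4% of protein-coding ones. Reads shared by several genes of the list count at each, so the 20 are not separate observations. None reached the fold threshold with all 6 libraries. In edgeR 4 of the 20 were higher at an adjusted p under 0.05 (0.356% of all genes tested) and 12 at an unadjusted one (5.91% of all genes). With the threshold on the fold, DESeq2 called 0, as edgeR did. Without replicate 2, 7 of 21 were higher at an adjusted p under 0.05, against 1.48% of all genes tested. RPF2, a factor that processes mitochondrial RNA ends, had 846, 962 and 782 reads in *upf1-5* and 1385, 1620 and 1739 in *upf3-1*, with 511, 480 and 547 in Col-0 (1). Its log2 fold change was 0.70 (SE 0.15, adjusted p = 0.0138 in edgeR's quasi-likelihood test). The summed reads of the list were 21830 to 24129 in *upf1-5*, 31550 to 35014 in *upf3-1* and 12815 to 18004 in Col-0 (1), where a read shared by several genes counts at each. Without replicate 2, AT1G63230 and AT1G63630 were called, which share 276 words of 24 bases. AT1G63630 had 19, 46 and 10 reads against 54, 36 and 45.

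AGO2, an Argonaute protein of antiviral defence, had 1641, 1526 and 1927 reads in *upf1-5* and 2796, 2380 and 4683 in *upf3-1*, with 1101, 1327 and 1262 in Col-0 (1). The groups did not overlap. Its log2 fold change of 0.76 (SE 0.18, adjusted p = 0.0303 in edgeR's quasi-likelihood test) stayed under the threshold. AGO3, its neighbour of similar sequence, had 1411, 1278 and 1686 reads against 2436, 2036 and 3958. AGO1, the main Argonaute of the miRNA pathway, had 92, 93 and 78 against 97, 86 and 131, with a log2 fold change of 0.07. DCL2, a Dicer of the siRNA pathway, had 6, 11 and 6 reads against 22, 12 and 15, with 0.89 (SE 0.44). Of 26 genes of the small RNA machinery, 5 were tested and 0 were called by edgeR or DESeq2. In edgeR 2 (AGO2 and AGO3) were higher at an unadjusted p under 0.05, against 5.91% of all genes tested. The same 2 were higher at an adjusted p under 0.05, against 0.356% of all genes tested. Reads that AGO2 and AGO3 share may be counted at both, so they may not be 2 separate results.

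Of 26 nuclear photosynthesis genes 25 were tested, of which 6 had a positive log2 fold change, with a median of -0.46 (-0.55 without replicate 2, and -0.27 against 0.19 over all genes with the depth table) and 0 calls. Protein-coding genes as a class had a median of -0.13 (0.06 with the depth table), with 37.4% positive. Genes with an adjusted p under 0.05 numbered 6 with all 6 libraries and 10 without replicate 2, each with a negative sign, where 0.844% and 2.44% of all genes tested were lower. At an unadjusted p under 0.05 in edgeR 17 were lower and 0 higher with all 6 libraries, against 7.27% and 5.91% of all genes. With the threshold on the fold, DESeq2 called 0, as edgeR did. LHCB1.3, a light-harvesting protein of photosystem II, had 2078, 1751 and 1852 reads in *upf1-5* and 1528, 1445 and 1302 in *upf3-1*, with 2780, 2755 and 2682 in Col-0 (1). Its log2 fold change was -0.60 (SE 0.14). PSBP1, of the oxygen-evolving complex, had 203, 234 and 238 against 138, 168 and 147, with -0.76 (SE 0.16). The 4 Rubisco small subunit genes went against this, with RBCS1A at 617, 732 and 634 reads against 763, 940 and 786 and a log2 fold change of 0.15 (SE 0.15).

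**Figure D5:**
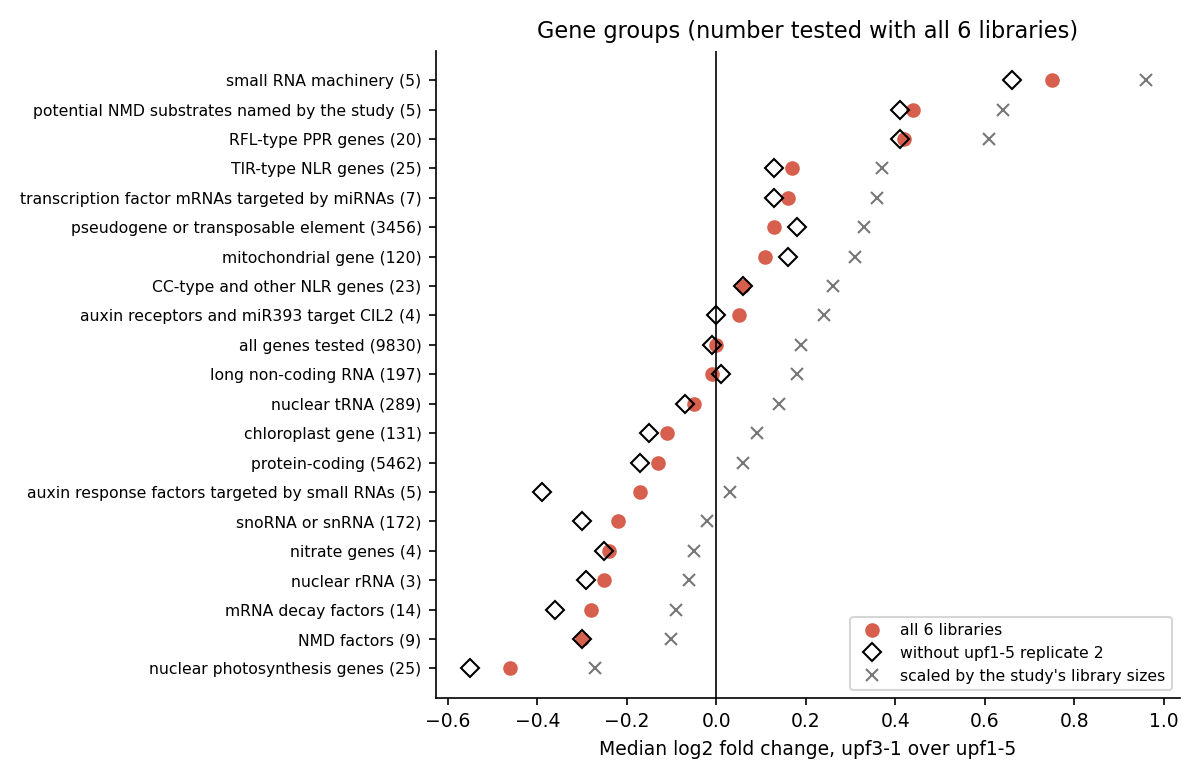
Median log2 fold change, *upf3-1* over *upf1-5*, of each gene list or class with at least 3 genes tested (number tested in brackets), with all 6 libraries (filled), without *upf1-5* replicate 2 (open diamond) and with the library sizes of the study's depth table (cross). The small RNA machinery (0.75, 5 genes), potential NMD substrates (0.44) and RFL-type PPR genes (0.42) lie above the median of all genes (0.00), and nuclear photosynthesis genes (-0.46) below it. The protein-coding class lies at -0.13.

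The auxin receptor, auxin response factor, miRNA-targeted transcription factor, nitrate and SMXL lists gave 0 calls in either fit, with 2 to 7 genes tested each with all 6 libraries. At an unadjusted p under 0.05 in edgeR, 2 of the 4 nitrate genes tested and 1 of the 2 SMXL genes were lower. At that p 0 genes of these lists were higher, against 7.27% lower and 5.91% higher of all genes tested. With the threshold on the fold, DESeq2 called 0. TIR1, the auxin receptor targeted by miR393, had 23, 32 and 24 reads in *upf1-5* and 35, 28 and 31 in *upf3-1*, a log2 fold change of 0.06 (SE 0.28). The nitrate reductase NIA2 had 687, 546 and 522 reads against 584, 499 and 506, with -0.33 (SE 0.14). Both mutants had more reads of it than the Col-0 (1) libraries, which had 204, 136 and 242.

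The shares of reads by gene class differed little between the mutants. Ribosomal RNA took 46.2, 43.9 and 46.5% of gene reads in *upf1-5* and 43.0, 41.6 and 42.1% in *upf3-1*. Long non-coding RNAs took 1.26 ± 0.0537% against 1.45 ± 0.112% and mitochondrial genes 0.693 ± 0.0410% against 0.775 ± 0.0231% (SD, n = 3). These classes and the snoRNA class did not overlap between the groups, each with p = 0.1 in the exact two-sided permutation test, the smallest that 3 against 3 libraries allow (adjusted 0.2). Chloroplast genes took 33.2 ± 0.859% against 34.3 ± 1.9%, and transfer RNAs 5.11 ± 0.161% against 5.22 ± 0.339%, and both overlapped.

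Set beside the wild type as a level, the mean of Col-0 (1) was nearer to *upf1-5* in 71 of the 80 genes that fell without replicate 2 and beyond it in 48. Of the 44 that rose, it was nearer to *upf1-5* in 31 and nearer to *upf3-1* in 13. Among these 13 are AT3G57480, AT4G03765 and AT3G02610, for which *upf1-5* replicates 1 and 3 had the lowest reads of the 9 libraries. The same position was not counted over all genes tested, so the numbers of this paragraph have no background to be set against.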

How the data were processed

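The authors deposited raw read counts, 1 file per library, for 37184 genes with all read lengths together, and no normalization. As their methods and processing notes state, adapters were cut with cutadapt 1.9, reads were mapped to TAIR10 by Bowtie 1.0.0 without mismatch and with a limit on the number of places, and counted with HTSeq 0.6.0. The strand setting of the counts is not given in the sources used here. The 5 counter lines of each library were left out of library sizes and tests. Of the genes with a mean of at least 10 reads, 200 repeated the counts of another gene in all 6 libraries. Counts of different genes may therefore hold the same reads. miRNA genes were not analysed here.

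Counts were tested with edgeR 4.0.16 (R 4.3.3), using TMM, filterByExpr and its quasi-likelihood test, with p-values adjusted by Benjamini-Hochberg across the genes that passed the filter. SE is the log2 fold change divided by the root of F, an approximation. Levels in RPM are scaled by TMM. Log2 levels for the principal components used a prior count of 2, and those for positions an offset of 0.5 RPM. Precision covers counting error and the spread of 3 libraries, since reads carry no molecular identifiers. On simulated counts for this comparison (9850 genes), edgeR recovered 91% of genes changed by 1.5 on the log2 scale and 100% of those changed by 2.5, with 8 false calls, and called 0 when none was changed. The simulation gave every gene the same dispersion, changed only genes above a floor on mean reads and held no library that stood apart. It therefore checks the procedure and does not give the power or the error rate for these 6 libraries. Gene classes and positions came from TAIR10.1, which has 36899 of the genes, and 285 organelle genes have no position.

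The members and gene lists were chosen with earlier results of these data known. Named genes were the mutated genes, 5 potential NMD substrates the study names (another is not reported here), the 10 protein-coding genes, 4 pseudogenes and 2 other non-coding genes with the largest fold change in each direction among calls that held without *upf1-5* replicate 2 and did not overlap, and called list members. Any other gene named was picked with its values known. Alternatives tried were other scalings, filters and tools (DESeq2 1.42.0), a replicate block, all 5 groups of Set 1 in one fit and each library left out in turn.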

Additional observations from a re-analysis of the deposited data

How the results depend on the processing

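The counts of calls depended on the libraries more than on most settings. Leaving out 1 library in turn gave 0 to 44 genes that rose and 9 to 80 that fell, and 0 to 24 and 3 to 54 for protein-coding genes. The highest values were without *upf1-5* replicate 2 and the lowest without *upf1-5* replicate 1 (1 and 9, with 0 and 3 protein-coding) or 3 (0 and 14). Without *upf3-1* replicates 1, 2 and 3 the counts were 5 and 23, 5 and 15, and 8 and 27. All 32 calls that held kept their sign in the 6 fits, and 3 were called in each. The library sizes of the study's depth table gave 43 and 10 (protein-coding 17 and 5). DESeq2 without beta prior gave 3 and 6 (2 and 2) and with it 1 and 3 (1 and 1), with no adjusted p for 21 of the 35 calls, and 7 calls that held. All 5 groups of Set 1 in one fit gave 6 and 23 (3 and 13). No filter gave 42 genes that fell (27), and no threshold on the fold change 35 and 83 (18 and 40). DESeq2's size factors, a mean of at least 10 counts and identical genes as 1 stayed within 1.5 times. The replicate block gave 20 and 33 (13 and 22). With the block, 33 calls held on replicates 1 and 3 alone. The deviations of same-numbered libraries correlated at 0.0343, -0.0091 and 0.0332, and those of the other pairs at -0.0609 to 0.0256. Not every library correlated best with its own number. Values this small cannot tell whether the numbers pair libraries. For the named genes, 306 values kept their side of the threshold, 100 with the same sign lost it and 0 turned. The ratio of tRNA shares, 1.02, ranged from 0.987 (without *upf3-1* replicate 3, reversed) to 1.05 with 1 library left out. The causes were not tested.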
